A study of Mus musculus with 12 samples.

Results

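Cluster 3 of the authors' single-cell clustering of MC38 tumors held CD8 T cells with Pdcd1 and Lag3 transcripts. Its cells were taken by the cluster number deposited for each cell, with no further choice. They numbered 2809 of the 93126 cells of the study (3.02%), and 23.4% of the 12021 cells in the 9 clusters of T and natural killer (NK) cells. MC38 is a mouse colon carcinoma line that was grown under the skin of female mice aged 8 to 12 weeks. All hosts carried a C57BL/6J (B6) genome: they were B6 mice, or F1 offspring of B6 and the Collaborative Cross strain CC001/UncJ, CC002/UncJ, CC007/UncJ, CC036/UncJ, CC075/UncJ, CC079/TauUncJ or CC080/TauUncJ. A PD-1 blocking antibody (aPD1) or its isotype control was given once, at 200 µg, and tumors were harvested after 48 h. Frozen samples were sorted so that 90% of the cells loaded were CD45+ and 10% CD45-. The study classed CC001, CC002 and CC075 hosts as responders and CC036, CC079 and CC080 hosts as non-responders from tumor growth in other animals, while B6 and CC007 hosts have no class here. The labels name the strain of a tumor but not its class.

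A CD8 T cell reads peptides on MHC class I through its T cell receptor and kills the presenting cell with perforin and granzymes. Under lasting antigen, as in a tumor, such cells take up inhibitory receptors such as PD-1 (Pdcd1), LAG-3 (Lag3) and TIM-3 (Havcr2) together with the transcription factor Tox, and lose genes of the circulating and progenitor state such as Tcf7, a condition known as exhaustion. Antibodies to PD-1 act on cells that carry this receptor, and the pool of Tcf7-positive progenitor cells is known as a source of new effector cells under treatment.

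The label was checked against marker genes before any comparison. Levels are counts of unique molecular identifiers (UMIs, 1 per captured transcript) scaled to 1000000 per cluster or tumor (CPM). Cd8a, 1 chain of the CD8 coreceptor, stood at 731 CPM in cluster 3 and at 194 CPM over the other T/NK cells. The inhibitory receptor genes Pdcd1 and Lag3 stood at 302 against 100 CPM and at 373 against 120 CPM. Rgs16, a regulator of G protein signaling, stood at 545 against 195 CPM, and Klrc1, which encodes the inhibitory lectin receptor NKG2A, at 573 against 251 CPM. All 5 markers were thus higher in the cluster than in the other T/NK cells pooled, although Rgs16 was as frequent in cluster 13. These genes helped to form the clusters, so the differences describe the cluster and were not tested.

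A Cd8a UMI was found in 77.9% of cluster 3 cells (median depth 2823 UMIs per cell), 58.3% of cluster 1 (median 4578), 52.9% of cluster 13 (median 2549) and 24.1% of cluster 7 (median 1347). For Klrc1 the shares were 69.9% in cluster 3, 57.7% in cluster 1, 50.2% in cluster 13 and 23.9% in cluster 7. A Pdcd1 UMI was seen in 51.9% of cluster 3, 44.1% of cluster 1, 31.7% of cluster 13 and 9.96% of cluster 7 cells, and a Lag3 UMI in 58.1%, 38.8%, 35.5% and 6.58%. In cluster 2, whose cells carry macrophage genes (median 3881 UMIs), UMIs of the single markers stood in 0.148% to 0.654% of cells, taken as a background level. Free RNA, doublets and misplaced cells can each give such UMIs and were not told apart. Cells with a UMI of Cd8a or Cd8b1 made up 88.2% of cluster 3, and cells with a UMI of Cd3d, Cd3e or Cd3g 95.8%.

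**Figure D1:**
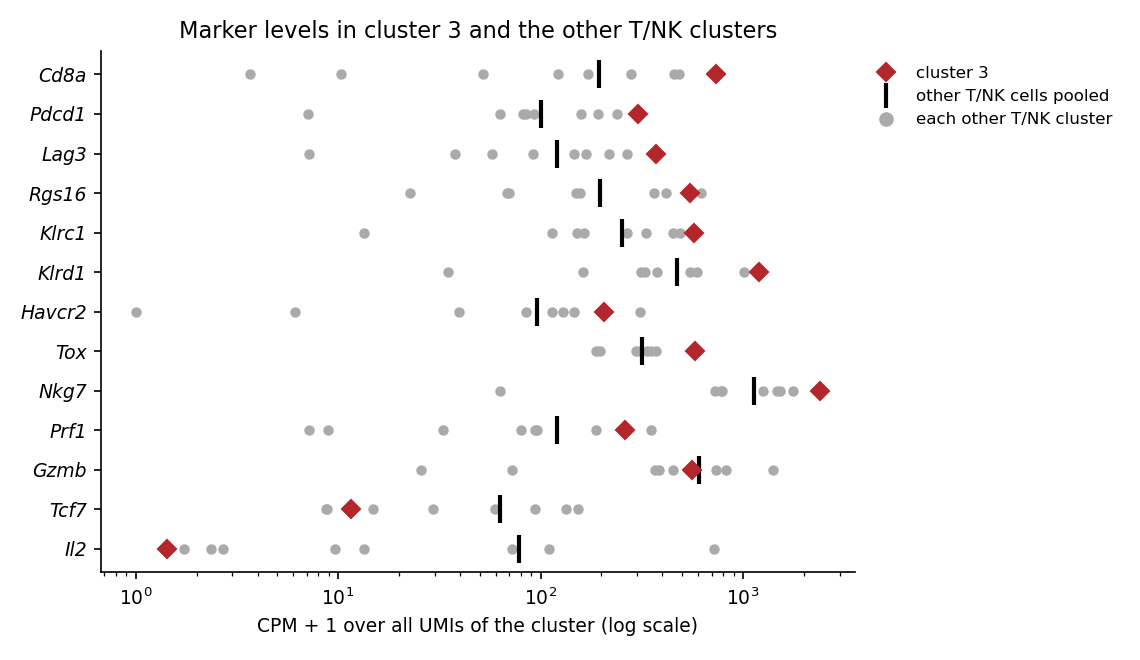
CPM + 1 (log axis) of 13 genes in cluster 3 (diamonds), in the other T/NK cells pooled (bars) and in each other T/NK cluster (points). Cd8a, Pdcd1, Lag3, Klrc1, Klrd1 and Nkg7 were higher in cluster 3 than in each other T/NK cluster and Tox was level with cluster 1 (580 and 589 CPM), whereas Tcf7 and Il2 were low and Gzmb was near the pooled level.

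Beyond the markers used in its name, the cluster was high in other receptors and transcription factors of the exhausted state. Havcr2 stood at 204 CPM against 95.2 CPM in the other T/NK cells (310 CPM in cluster 13), Entpd1, an enzyme that degrades extracellular ATP, at 132 against 75.6 CPM (127 CPM in cluster 1), and Cd96 at 105 against 63.6 CPM. Tox stood at 580 against 315 CPM and Nr4a2, a nuclear receptor induced by T cell receptor signals, at 607 against 290 CPM (550 CPM in cluster 13). Not every gene of these groups was high. Tigit was close in both (175 and 152 CPM), Ctla4 stood at 264 against 421 CPM (986 CPM in cluster 8), and Eomes, a transcription factor of late exhausted and memory cells, stood at 24.8 against 44.1 CPM, where cluster 24 (156 CPM) raised the pool and clusters 1 and 13 stood at 17.2 and 21.5 CPM. The transcription factor gene Ikzf2 stood at 292 against 619 CPM, with 1514 CPM in cluster 8 and 186 and 233 CPM in clusters 10 and 13. Nr4a1 stood at 205 against 331 CPM (188 CPM in cluster 1) and Batf at 62.5 against 87.4 CPM (49.8 CPM in cluster 12).

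Genes of the progenitor and circulating state were lower than in the other T/NK cells pooled, but not than in each cluster. Tcf7, which encodes the factor TCF-1, stood at 10.6 CPM against 62.3 CPM, and a UMI was present in 2.67% of the cells. Klf2, which controls exit from tissue, stood at 45.3 against 187 CPM. The interleukin-7 receptor gene Il7r stood at 76.7 against 194 CPM. In cluster 1 these 3 genes stood at 7.70, 68.9 and 71.1 CPM, near cluster 3, and in cluster 7 at 153, 397 and 314 CPM. Some genes of the list did not share the pattern or were close: Bach2, a repressor that restrains effector differentiation, stood at 206 against 177 CPM, Ccr7, the chemokine receptor of lymph node homing, at 53.9 against 41.1 CPM, and Ltb, which encodes lymphotoxin beta, at 349 against 387 CPM.

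Effector genes were split. Nkg7, a granule protein gene, stood at 2410 against 1137 CPM, Prf1, which encodes perforin, at 261 against 120 CPM (351 CPM in cluster 24), and Gzmk at 50.4 against 21.3 CPM (56.1 CPM in cluster 7). Gzmb stood at 559 against 604 CPM, and Gzma and Gzmc stood at 58.5 against 442 CPM and 66.9 against 403 CPM. The pooled values of Gzma and Gzmc were high through cluster 24 (1891 and 1923 CPM), and in cluster 1 the levels were 69.8 and 39.9 CPM. Cytokine genes were also uneven. Il2, the T cell growth factor, was nearly absent at 0.427 against 77.1 CPM, Ifng stood at 534 against 758 CPM and Xcl1, a chemokine that attracts cross-presenting dendritic cells, at 311 against 1070 CPM. Cluster 13 raised the pooled level of all 3, at 722 CPM of Il2, 6314 CPM of Ifng and 5482 CPM of Xcl1, and in cluster 1 Ifng stood at 368 CPM and Xcl1 at 245 CPM, below cluster 3. Csf1, the macrophage growth factor gene, stood at 86.1 against 29.0 CPM. Among homing receptors Cxcr6 stood at 228 against 100 CPM, and Itgae, the CD103 integrin chain of epithelial resident cells, at 2.67 against 31.5 CPM. By fold over the other T/NK cells, the leading 10 genes of at least 50 CPM were Gm156 (6.37-fold), Slc17a6 (5.73-fold), Dlg2 (4.25-fold), Tcrg-C2 (4.03-fold), Cd8a (3.77-fold), Trbv16 (3.63-fold), Trgv2 (3.62-fold), Smyd1 (3.55-fold), Ier5l (3.51-fold) and Gzmf (3.5-fold). Among them Tcrg-C2 and Trgv2 are genes of the gamma chain of the gamma-delta T cell receptor. The delta chain gene Trdc had a UMI in 0.249% of the cells.

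Transcripts of other cell types were looked for in the cluster. A Cd4 UMI was present in 65 cells (2.31%), 44 of them without a Cd8a or Cd8b1 UMI, and a Foxp3 UMI in 10 cells (0.356%). Macrophage transcripts were more common: 857 cells (30.5%) held at least 1 UMI and 227 at least 2 UMIs of 5 macrophage markers (Lyz2, Apoe, C1qa, C1qb and C1qc). A background level was not measured for these genes, and no doublet caller was run. A barcode of 293 cluster 3 cells was also used in another library, in 10 cases by another cluster 3 cell. All gene results were computed a second time without the cells that held at least 2 macrophage UMIs. Of the genes named below for the response classes over both treatments, Klre1, Rgs1, Fyco1, Gbp4, Eprs and Tnfsf8 then no longer passed.

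The cluster was present in 47 of 48 tumors, but at very different levels. Among responder strains, the 3 CC002 isotype tumors held 2.47%, 9.62% and 12.1% of their cells in it and the 3 CC002 aPD1 tumors 3.72%, 4.5% and 10.8%. The 4 CC001 isotype tumors held 2.09%, 2.30%, 6.00% and 6.91%, and the 4 aPD1 tumors 1.08%, 1.86%, 2.17% and 5.33%. In CC075 hosts the isotype tumors held 0.263%, 3.53% and 5.13%, and the aPD1 tumors 2.77%, 3.49% and 12.4%. Shares thus differed severalfold between tumors of 1 strain and treatment. The exact binomial 95% interval, which covers counting error only, was 2.03% to 3.69% for the CC075 aPD1 tumor of lowest share and 11.0% to 14% for that of highest share.

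Among non-responder strains, CC079 hosts had fewest of these cells. Their isotype tumors held 0.109%, 0.421% and 0.547%, and their aPD1 tumors 0%, 0.0593% and 0.135%. The tumor with no such cell had 2301 cells in all, which allows a share of up to 0.160% (exact 95% interval). In CC036 hosts the isotype tumors held 0.812%, 1.75% and 9.24% and the aPD1 tumors 0.545%, 0.925% and 1.07%, and in CC080 hosts the isotype tumors held 0.3%, 1.77% and 5.62% and the aPD1 tumors 0.414%, 1.09% and 1.78%. B6 hosts, which have no class, lay between 2.08% and 7.07%, and CC007 hosts between 0.943% and 4.38%.

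**Figure D2:**
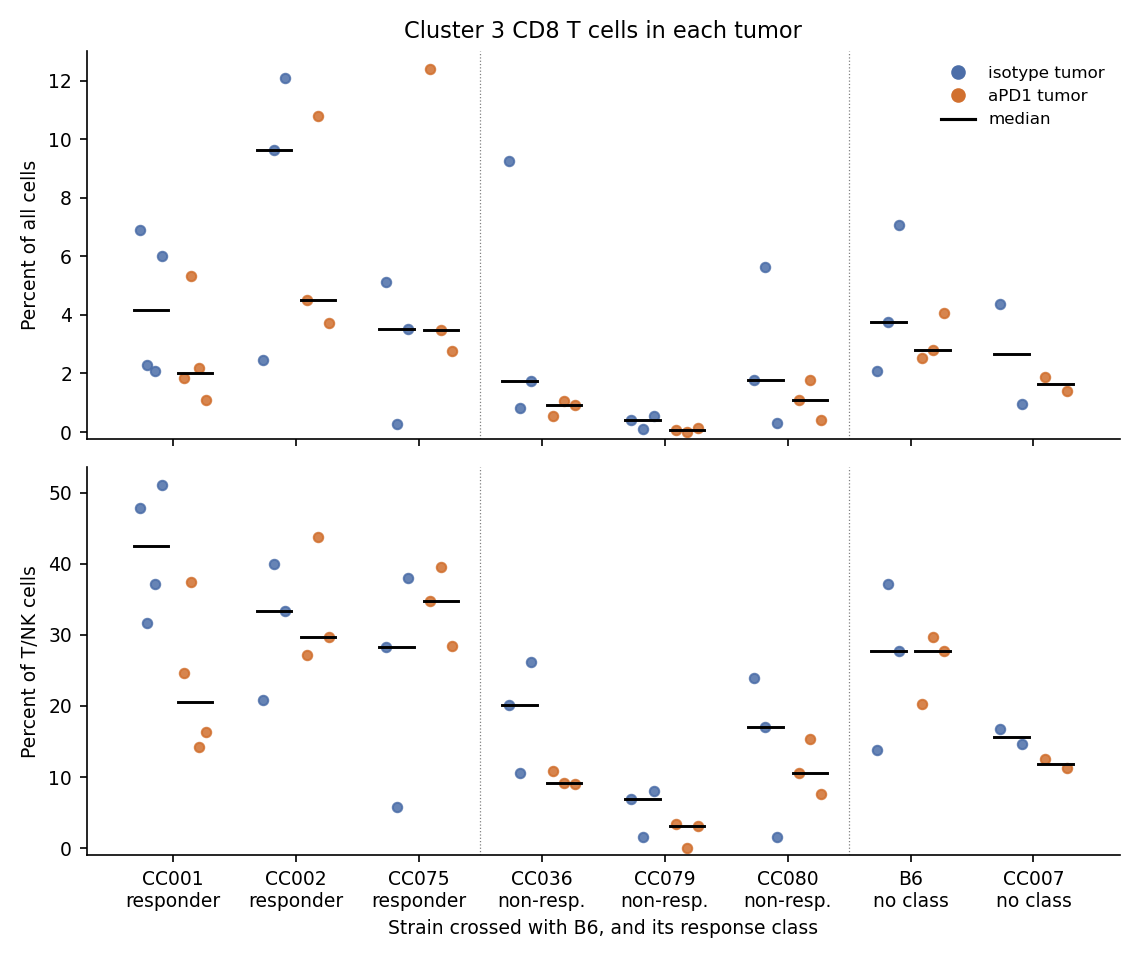
Cluster 3 as a percent of all cells (upper panel) and of T/NK cells (lower panel) in each of the 48 tumors by strain, with isotype and aPD1 tumors in separate columns and bars at the medians. All 3 CC079 aPD1 tumors lay at or under 0.135% of all cells, and the aPD1 tumors of responder strains lay between 1.08% and 12.4%.

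The first comparison asked whether tumors of responder strains hold more of these cells. In isotype tumors the share of all cells was lowest at 0.263%, median 4.33% and highest at 12.1% in responder strains (n = 10), and 0.109%, 0.812% and 9.24% in non-responder strains (n = 9). The groups overlapped over most of their range. The medians differed by 3.52 percentage points, and the two-sided exact permutation test of the rank sum did not pass (p = 0.0435, Benjamini-Hochberg adjusted over 10 share tests 0.109). In aPD1 tumors the shares were 1.08%, 3.61% and 12.4% in responder strains (n = 10) and 0%, 0.545% and 1.78% in non-responder strains (n = 9). The medians differed by 3.06 percentage points, and the rank sum test passed (exact permutation, p = 8.66e-05, adjusted p = 4.33e-04).

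As a share of T/NK cells, isotype tumors held 5.75%, 35.2% and 51.1% (lowest, median, highest) in responder strains and 1.53%, 10.6% and 26.2% in non-responder strains, a difference of 24.6 points (exact permutation test, n = 10 and 9, adjusted p = 0.00700). In aPD1 tumors the shares were 14.2%, 29.1% and 43.8% against 0%, 8.96% and 15.3%, a difference of 20.2 points (exact permutation test, n = 10 and 9, adjusted p = 4.33e-04). The aPD1 groups overlapped only between 14.2% and 15.3%. Cluster 3 cells were thus a larger part of the T/NK cells of responder tumors under both antibodies. Over clusters 1, 3 and 13 alone, the T/NK clusters highest in Cd8a, the medians lay closer and the ranges overlapped, at 71.3% (41.7% to 86.5%) in responder and 68.8% (33.3% to 81.9%) in non-responder isotype tumors, and at 75.8% (61.5% to 84.9%) and 56.2% (0% to 80.0%) in aPD1 tumors. The difference over these 3 clusters was not tested.

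The p-values of these 3 results hold for tumors taken as independent. With tumors compared within the 8 pools that held both classes, the aPD1 difference was 2.99 points of all cells (higher in 8 of 8 pools, exact permutation p = 0.00781, the smallest that 8 pools can give, adjusted p = 0.0625), and for T/NK cells it was 25.1 points under isotype (6 of 8 pools, exact permutation adjusted p = 0.10) and 23.4 points under aPD1 (7 of 8, exact permutation adjusted p = 0.0625). The differences were thus about as large within pools, and after adjustment over 8 tests none passed. The differences given are medians over pools, while the permutation tested their mean. With 1 mean per strain, 3 strains against 3 gave p = 0.10 in all 3 cases, the smallest value that exact permutation of 6 strains can give. Klrc1, a gene by which the cluster is marked, was itself higher in the cluster's cells of responder strains (below), and the shares were known when the cluster was chosen for description, so they are not independent evidence. The hashtag antibodies that mark the tumors differed as well: responder tumors carried C0301 or C0302 in 18 of 20 cases and non-responder tumors C0303 or C0304 in 16 of 18, and the 4 crossed tumors were those of CC036 in pool 8 and CC002 in pool 12. The part of the hashtag in these differences was not tested.

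No test of the share between aPD1 and isotype tumors passed after adjustment. In pairs of tumors of 1 strain and pool, the aPD1 tumor had the larger share of all cells in 6 of 10 responder pairs, 2 of 9 non-responder pairs and 2 of 5 pairs without a class. The medians, aPD1 minus isotype, differed by -0.719 points in responder strains (permutation test of the rank sum, n = 10 and 10, adjusted p = 0.853) and -0.267 points in non-responder strains (exact permutation test, n = 9 and 9, adjusted p = 0.486). Taken within pools, the median of the pair differences was 0.620 points in responder strains and -0.412 points in non-responder strains. The p-values within pools are of sign flips that test the mean of the pair differences, not their median. For all cells they were 0.889 after adjustment in responder strains (exact permutation). In non-responder strains p was 0.0312 and adjusted p 0.0833 (exact permutation). The responder means, 5.04% under isotype and 4.81% under aPD1, differed in the other direction from that median. Over T/NK cells the share was lower in 8 of 9 non-responder aPD1 tumors than in their pair, with a median difference of -3.47 points (exact permutation p = 0.0547, adjusted p = 0.10). The means of the non-responder groups differed by -1.62 points of all cells (exact permutation adjusted p = 0.252). The difference between the classes in this change, 1.03 points, did not pass either (exact permutation test, n = 10 and 9 pairs, adjusted p = 0.486), and none over T/NK cells passed. Isotype and aPD1 tumors never carried the same hashtag, so hashtag and treatment cannot be told apart.

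Gene expression within the cluster was then compared between tumors. Counts were summed over the cluster 3 cells of each tumor with at least 10 such cells and tested with edgeR's quasi-likelihood test, all adjusted p-values being Benjamini-Hochberg over all genes tested. The fit of class and treatment used 31 tumors (responder isotype 9, responder aPD1 10, non-responder isotype 7, non-responder aPD1 5) with 2205 cells and 37321 to 886093 UMIs per tumor. The median UMIs per cell in a tumor ran from 1806 to 5392 over these groups, with medians of 2604, 3211, 3141 and 3628 in the order just given. Tumors of 1 strain were treated as independent, though class is a property of 3 strains each. No CC079 aPD1 tumor had enough cells, so the 5 non-responder aPD1 tumors were of CC036 and CC080 hosts. The non-responder isotype group also held CC079 tumors. Comparisons that use the non-responder aPD1 group thus set unlike strains beside each other.

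Over both treatments, 31 of 4031 genes (0.769%) differed between the classes, 17 higher and 14 lower in responder strains. Leaving out 1 strain or pool gave from 5 (without CC002) to 111 genes (without CC080). With pool as a term in the fit, 17 passed, of which 11 were shared. With counts summed per strain and treatment, 3 genes passed (Gm10260, Penk and Gm49980), all lower in responder strains. Scaling by total counts alone gave 6 higher and 14 lower genes, so the balance of the directions depends on the scaling. The fold changes below are responder over non-responder on the log2 scale, and their median over all genes was 0.0135. The standard error (SE) beside a fold change was derived from that change and the F statistic of its test. It is not an estimate that the fit itself gives.

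The genes higher in responder strains included 4 of 1 receptor family. C-type lectin receptors of NK cells are carried by activated CD8 T cells too, where they tune the response to MHC class I related ligands. That list was chosen with earlier results of these data known. Of its 13 genes 8 were tested, with a median change of 0.69. Higher past the threshold were 17 of all 4031 genes (0.422%) and 4 of these 8. They lie together: Klre1, Klrd1, Klrk1 and Klrc1 span 101 kb of chromosome 6 (129577905 to 129678973, GRCm38). Alleles of the CC strains were read against the B6 reference, so the counting may differ between hosts. The part of this in the levels of these genes was not tested.

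Klrk1 encodes NKG2D, an activating receptor for stress ligands. It stood at 109, 351 and 480 CPM (lowest, median, highest) in responder isotype, 212, 303 and 398 CPM in responder aPD1, 78.7, 182 and 234 CPM in non-responder isotype and 117, 131 and 311 CPM in non-responder aPD1 tumors. The ranges overlapped, yet 18 of 19 responder tumors lay above the non-responder median of 170 CPM, and the change was 0.96 ± 0.19 (SE, edgeR adjusted p = 0.00567). Klrd1 encodes CD94, the partner chain of the NKG2 receptors. It ran from 595 to 2094 CPM in responder tumors, with a median of 1345 CPM, and from 701 to 1368 CPM in non-responder tumors, with a median of 778 CPM (0.69 ± 0.16, edgeR adjusted p = 0.0211). Klrc1 (NKG2A), the inhibitory partner of CD94, ran from 326 to 855 CPM against 220 to 516 CPM, with medians of 629 and 423 CPM (0.69 ± 0.16, edgeR adjusted p = 0.0278). Klre1, a receptor that pairs with other lectins of the cluster, ran from 170 to 504 CPM against 117 to 253 CPM, with medians of 255 and 184 CPM (0.72 ± 0.17, edgeR adjusted p = 0.0278).

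Strains of 1 class were not alike in these genes, and each of the 4 calls was lost without at least 1 strain. Of 30 alternatives each, the call was lost in 6 for Klrk1, 12 for Klrd1 and 15 each for Klrc1 and Klre1. That of Klrc1 was lost without CC001, CC002, CC036, CC079 or CC080, and that of Klre1 without CC002, CC075, CC036 or CC079. That of Klrd1 was lost without CC002 or CC036, and that of Klrk1 without CC002 or CC080. Klre1 was highest in CC075 hosts, at 393 to 504 CPM in 5 tumors, above every tumor of every other strain, and without CC075 its class difference was 0.43 (edgeR adjusted p = 0.123). Klrk1 had its lowest strain median in CC080 hosts, at 117 to 159 CPM in 4 tumors, and its difference was 0.81 without CC080 (edgeR adjusted p = 0.0547) and 0.79 without CC002 (edgeR adjusted p = 0.0819). Without CC002, Klrd1 differed by 0.48 (edgeR adjusted p = 0.248) and Klrc1 by 0.62 (edgeR adjusted p = 0.164). Klrc1 differed by 1.16 in pools 1 to 6 (edgeR adjusted p = 0.000362) and by 0.12 in pools 7 to 12 (edgeR adjusted p = 0.793). The non-responder tumors of the fit were of CC079 and CC080 hosts in pools 1 to 6 and of CC036 hosts in pools 7 to 12. Pools and strains therefore cannot be told apart in this split. Klrd1 was lost with pool as a term (0.71, edgeR adjusted p = 0.0543), and all 4 were lost per strain (adjusted p from 0.18 to 0.57). CC007 hosts, which have no class, had the highest Klrc1 levels of single tumors, up to 1226 CPM.

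**Figure D3:**
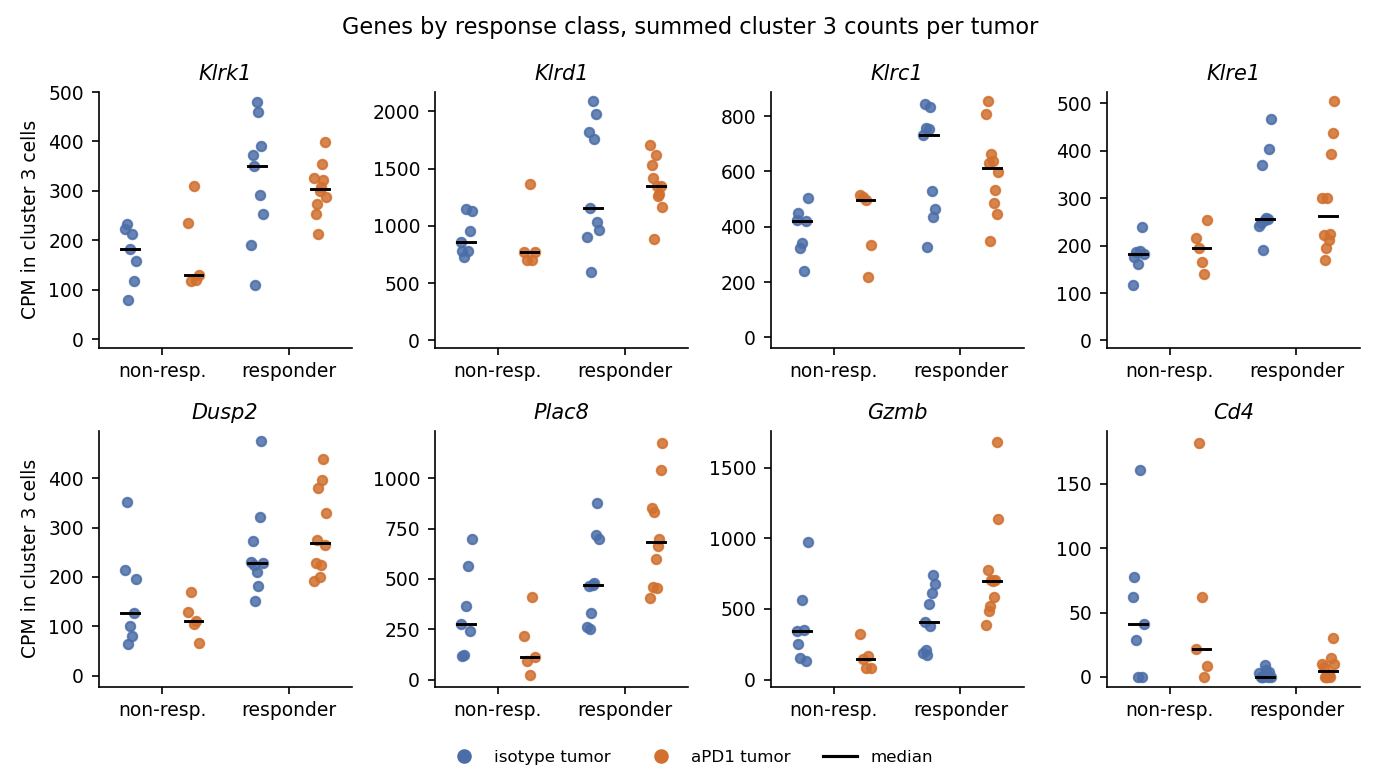
CPM of 8 genes in the summed cluster 3 counts of each tumor, by class and treatment (n = 7, 5, 9 and 10 from left to right in each panel), with bars at the medians. The lectin genes, Dusp2 and Plac8 had higher medians in both responder groups than in both non-responder groups, while the classes overlapped in every panel, and among these tumors Cd4 exceeded 30.3 CPM in non-responder tumors only.

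Among effector and activation genes, Gzmb, which encodes the protease granzyme B, was higher in responder tumors. It stood at 171, 405 and 741 CPM in responder isotype, 383, 701 and 1679 CPM in responder aPD1, 132, 343 and 975 CPM in non-responder isotype and 81.6, 143 and 322 CPM in non-responder aPD1 tumors. The aPD1 groups did not overlap, and the responder isotype range lay within that of the non-responder isotype tumors. The change was 1.26 ± 0.29 over both treatments (edgeR adjusted p = 0.0255; 0.0850 with pool as a term) and 2.39 ± 0.47 in aPD1 tumors (edgeR adjusted p = 0.0113). The first call was lost in 13 of 30 alternatives, among them without CC002, CC075 or CC036, with changes of 0.85 to 1.81, and the second in 8 of 30, among them without CC036, with changes of 2.01 to 2.84. Over both treatments Gzmb was the only one of 16 tested cytotoxic effector genes to pass, where 0.769% of all genes did. The list median was 0.35. Nkg7, at 0.34 ± 0.11, had an adjusted p of 0.205 in edgeR.

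Dusp2, a phosphatase induced by T cell receptor signals, had a median of 230 CPM (151 to 475) in responder and 118 CPM (64.4 to 351) in non-responder tumors, with all 19 responder tumors above the non-responder median (1.06 ± 0.20, edgeR adjusted p = 0.00517). Rgs1, a regulator of chemokine receptor signaling, had medians of 827 against 508 CPM (0.71 ± 0.18, edgeR adjusted p = 0.0432; 0.10 with pool as a term). Of 21 tested genes of the T cell receptor response these 2 were higher, and Tnfsf8, the ligand of CD30, was lower. Over all genes 0.422% were higher and 0.347% lower. Plac8, a small protein of effector lymphocytes, had a median of 599 CPM (252 to 1177) against 229 CPM (20.7 to 696), a change of 1.31 ± 0.27 (edgeR adjusted p = 0.00893; 0.10 with pool as a term). Fyco1, an adaptor for the transport of vesicles, stood at 60.8 against 29.8 CPM (1.21 ± 0.29, edgeR adjusted p = 0.0278). Gbp4, an interferon-induced GTPase, stood at 72.5 against 40.3 CPM (0.95 ± 0.24, edgeR adjusted p = 0.0450). Gbp4 was the only one of 18 tested interferon-stimulated genes to pass, where 0.769% of all genes did. Dusp2 and Fyco1 passed with pool as a term and Gbp4 did not (edgeR adjusted p = 0.207). Of 30 alternatives each, the call was lost in 2 for Dusp2, 19 for Rgs1, 8 for Plac8, 13 for Fyco1 and 23 for Gbp4. For the last 4 the calls were lost without CC002, CC075 or CC036, and the change of Plac8 ran from 0.43 to 2.5.

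Over both treatments, edgeR called no member of several other gene groups. None of 11 tested inhibitory receptors, 18 exhaustion transcription factors, 9 progenitor and memory genes, 10 costimulatory receptors, 12 cytokine receptors, 11 homing receptors, 21 cell cycle genes or 13 glycolysis genes passed between the classes there, while in aPD1 tumors alone Id2, of the exhaustion transcription factors, did. Over both treatments 0.769% of all genes passed, a share at which lists of this size can hold no call. The medians of these lists lay between -0.24 (cell cycle) and 0.57 (progenitor and memory). Pdcd1 had a median of 315 CPM (163 to 457) in responder and 266 CPM (107 to 380) in non-responder tumors (0.31 ± 0.16, edgeR adjusted p = 0.486), Lag3 342 and 335 CPM (0.35 ± 0.23, edgeR adjusted p = 0.639; 1.24 without CC036, adjusted p = 0.0329, about 0 without CC080 and -0.16 in pools 7 to 12) and Tox differed by -0.44 ± 0.18 (edgeR adjusted p = 0.347). Of the other markers, Cd8a stood at 782 against 534 CPM (0.42 ± 0.14, edgeR adjusted p = 0.197) and Rgs16 at 492 against 311 CPM (0.57 ± 0.22, edgeR adjusted p = 0.312; 0.0352 with pool as a term). For Lag3, pools 7 to 12 held non-responder tumors of CC036 hosts only in this fit. A p that misses the threshold does not show that the levels were equal.

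Genes lower in responder strains included Cd4, the coreceptor of helper and regulatory T cells. It was listed at 0 in 9 of 19 responder tumors and had a median of 2.26 CPM and a highest value of 30.3 CPM there. In non-responder tumors it was at 0 in 3 of 12, with a median of 34.8 CPM and a highest value of 182 CPM (-3.21 ± 0.61, edgeR adjusted p = 0.00517). By strain, all 6 CC036 tumors held Cd4 UMIs, at 21.5 to 182 CPM, while the 4 CC080 tumors ran from 0 to 40.9 CPM. Cells with a Cd4 UMI were 5 of 670 in responder isotype, 19 of 1099 in responder aPD1, 21 of 332 in non-responder isotype and 10 of 104 in non-responder aPD1 tumors. Summed over the 8 regulatory and helper CD4 markers, the medians were 730, 649, 978 and 784 CPM in the same order, with ranges of 396 to 1006, 489 to 1278, 546 to 2281 and 516 to 1641 CPM. Of these 8 genes 6 were tested and Cd4 alone passed, where 0.769% of all genes did.

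Penk, the precursor of enkephalin peptides, had medians of 10.1 CPM (0 to 106) in responder and 84.7 CPM (0 to 433) in non-responder tumors (-2.79 ± 0.57, edgeR adjusted p = 0.00893; 0.0686 with pool as a term). Maf, a transcription factor of exhausted and helper T cells, stood at 17.1 against 42.1 CPM (-1.66 ± 0.40, edgeR adjusted p = 0.0356; 0.0652 with pool as a term), Tnfsf8 at 9.03 against 32.7 CPM (-1.91 ± 0.48, edgeR adjusted p = 0.0450; 0.711 with pool as a term) and Wls, a carrier of Wnt proteins, at 20.7 against 83.1 CPM (-1.68 ± 0.32, edgeR adjusted p = 0.00517; 0.104 with pool as a term). Eprs, a tRNA synthetase gene, Odc1, the first enzyme of polyamine synthesis, and Pkp4, a junction protein gene, were lower by 0.84, 1.00 and 1.06 (edgeR adjusted p = 0.0103 each), and each was lost with pool as a term (adjusted p from 0.0577 to 0.115). The Penk call was lost without CC080 and those of Tnfsf8 and Wls without CC036, as were those of Eprs, Odc1 and Pkp4 without CC002 or CC036. The change ran from -3.19 to -0.81 for Tnfsf8, from -2.57 to -0.70 for Wls and from -1.30 to -0.47 for Odc1. The part of CD4 T cells in Cd4, Maf, Penk and Tnfsf8 was not tested.

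The largest difference was in Gm10260, a gene copy of the ribosomal protein gene Rps18. It stood between 628 and 1992 CPM in the 12 non-responder tumors and between 0 and 126 CPM in the 19 responder tumors, so the classes did not overlap (-7.36 ± 0.34, edgeR adjusted p = 3.23e-19). Rps18 had a median of 3225 CPM (2360 to 4090) against 1791 CPM (1204 to 2800), a change of 0.89 ± 0.14 in the opposite direction (edgeR adjusted p = 4.58e-04). Reads of near-identical copies can be split by the counting, and CC alleles were read against the B6 reference, so both values are uncertain as levels of expression. The same holds for H2-Q7 and H2-T23, nonclassical MHC class I genes of a multigene family, at medians of 608 against 400 CPM (0.70 ± 0.13, edgeR adjusted p = 0.00517) and 414 against 268 CPM (0.66 ± 0.14, edgeR adjusted p = 0.0143; 0.0686 with pool as a term). The changes ran from 0.34 to 1.10 for H2-Q7 and from 0.31 to 1.08 for H2-T23 over the alternatives, and both calls were lost without CC002, CC036 or pool 9. The Rps18 call was lost without CC036.

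Taken by antibody, fewer genes passed. In isotype tumors 2 of 4031 genes (0.0496%) did, Rps18 and Gm10260, and 8 with pool as a term, Klrk1 among them. In aPD1 tumors 8 genes (0.198%) passed, 4 higher (0.0992%) and 4 lower (0.0992%). The higher ones were Gzmb, Plac8 (2.03 ± 0.42, edgeR adjusted p = 0.0191; 0.0893 with pool as a term), Dusp2 (1.44 ± 0.32, edgeR adjusted p = 0.0375) and Id2 (0.97 ± 0.21, edgeR adjusted p = 0.0375). The lower ones were Gm10260, Sh3bgrl (-1.23 ± 0.22, edgeR adjusted p = 0.00425), Pkp4 (-1.57 ± 0.32, edgeR adjusted p = 0.0189; 0.0893 with pool as a term) and Wls (-2.09 ± 0.48, edgeR adjusted p = 0.0460; 0.130 with pool as a term). The non-responder aPD1 group had 5 tumors with 104 cells, and leaving out the 2 CC080 tumors that share an animal identifier left only Gm10260. Of 30 alternatives (29 for Wls) these aPD1 calls were lost in 0 for Gm10260, 7 for Sh3bgrl, 10 for Pkp4, 11 for Plac8, 19 for Dusp2 and 20 each for Id2 and Wls.

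Few genes differed between aPD1 and isotype tumors at 48 h. In responder strains no gene of 4031 passed in edgeR (0%), where 146 had an unadjusted p under 0.05. DESeq2 called 0 as well, and with pool as a term 1 gene, Cmtm7, did. Over all strains, with 40 tumors, no gene of 2709 passed in edgeR (0%; 98 at an unadjusted p under 0.05). Pdcd1, which encodes the target of the antibody, stood at 163, 333 and 457 CPM in responder isotype and 185, 292 and 357 CPM in responder aPD1 tumors, and at 134, 271 and 315 CPM in non-responder isotype and 107, 261 and 380 CPM in non-responder aPD1 tumors. All 4 groups overlapped, with changes of -0.26 ± 0.18 in responder strains (edgeR adjusted p = 1.000) and -0.04 ± 0.26 in non-responder strains (edgeR adjusted p = 1.000).

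In non-responder strains 1 gene (0.0248%) passed. The aPD1 tumors there were of CC036 and CC080 hosts only, and the isotype tumors also of CC079 hosts. The median change of the 16 tested cytotoxic effectors was -0.58 there (3 of 16 positive; all genes -0.00141), that of 9 progenitor and memory genes -0.69, and the median of the difference between the classes for the cytotoxic effectors was 1.03 (12 of 16 positive; all genes -0.00264), with no member of either list past the threshold in edgeR. For the difference between the classes DESeq2 called 4 genes, Mt1, Id2, Sh3bgrl and the granzyme gene Gzmf. With no filter on low counts 8 genes passed by treatment in non-responder strains in edgeR. They were Gzmb, Gzme, Gzmf, Id2, Mt1, Itgb7, Tff1 and the macrophage marker Fcer1g. Id2, a transcriptional regulator needed by effector CD8 T cells, stood at 429, 586 and 746 CPM in isotype and 170, 294 and 332 CPM in aPD1 tumors, with no overlap (-1.21 ± 0.23, edgeR adjusted p = 0.0199). In responder strains it stood at 272, 443 and 650 CPM and 305, 462 and 709 CPM. The difference between the classes in the change with aPD1 passed for 2 genes (0.0496%), Id2 (1.33 ± 0.27, edgeR adjusted p = 0.0431) and Sh3bgrl (-1.55 ± 0.30, edgeR adjusted p = 0.0368). Sh3bgrl, which encodes a small thioredoxin-like protein, stood at 20.2, 98.7 and 122 CPM in non-responder isotype and 129, 208 and 245 CPM in non-responder aPD1 tumors, against 45.3, 115 and 134 CPM and 61.6, 81.8 and 121 CPM in responder strains. Of 26 alternatives, the difference between the classes was lost in 18 for Id2 and 13 for Sh3bgrl, among them without the 2 tumors of 1 animal identifier, with tumors of at least 20 cells only and without CC001, CC075, CC036 or CC080, while its size ran from 1.08 to 1.57 and from -1.77 to -1.34. The Id2 call in non-responder strains was lost in 11 of 26. Summed macrophage markers in these cells had higher medians under aPD1, at 880 against 508 CPM in responder and 931 against 504 CPM in non-responder tumors. Without the cells that held at least 2 macrophage UMIs the Id2 change in non-responder strains was -1.13 (edgeR adjusted p = 0.246). That fit kept cells with 1 such UMI. It also lost the CC036 aPD1 tumor of pool 8 and the CC079 isotype tumor of pool 1, which fell to 9 and 5 cells. The part of macrophage RNA in the Id2 change was not tested.

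The strains were also compared without the classes. Across the 38 tumors of 7 strains with at least 3 tumors each, 566 of 4831 genes (11.7%) differed between strains (edgeR, adjusted for treatment), and 733 did in DESeq2. When pool entered that fit the number was 210 (4.35%), and 149 genes were called in both. Among the tumors of the fit, which left out the CC080 tumors of pool 11 with 7 and 8 cells, the pools with CC001, CC002 and CC080 tumors held none of the 4 other strains, so the difference between these sets of strains cannot be told apart from the pools, and that fit tests the strains within each set only. CC007 tumors lay in pools 6 and 7, beside B6 tumors alone. Among cytotoxic effectors 9 of 16 tested genes passed (5 with pool as a term), among inhibitory receptors 6 of 11 (3), progenitor and memory genes 6 of 10 (4), NK lectin receptors 4 of 8 (5), cytokines and chemokines 5 of 11 (5), interferon-stimulated genes 7 of 19 (4), T cell receptor response genes 8 of 22 (8) and exhaustion transcription factors 3 of 19 (2). Of 23 cell cycle genes 1 passed (0 with pool as a term), and of 14 glycolysis genes none (1). Several of the most significant genes were gene copies or members of multigene families (Gm10260, Ftl1-ps1, H2-Q2, Bcl2a1a and Tpm3-rs7), which alleles of the CC strains can make uncertain as levels.

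CC075 tumors had the highest strain median of Gzmb. It ran from 676 to 1679 CPM with a median of 741 CPM, against medians of 597 CPM in CC002, 466 CPM in B6, 394 CPM in CC001, 386 CPM in CC007, 202 CPM in CC036 and 151 CPM in CC080 tumors (edgeR adjusted p over strains 0.0100). Il12rb2, a chain of the interleukin-12 receptor, ran from 226 to 537 CPM in CC075, with a median of 441 CPM, and had medians of 184 CPM or less in the other strains (edgeR adjusted p = 4.98e-05). Icos, a costimulatory receptor, had a median of 530 CPM in CC075 and 57 CPM in CC080 tumors (edgeR adjusted p = 0.00374). Gbp2, an interferon-induced GTPase, had medians of 55.8 CPM in CC075 and 6.86 CPM in CC036 tumors (edgeR adjusted p = 0.00629). CC075 tumors had the lowest Xcl1 median, at 9.95 to 117 CPM, whereas CC036 tumors ran from 65.2 to 2364 CPM with a median of 1051 CPM (edgeR adjusted p = 0.00133). Neighbouring strains in these orders overlapped in single tumors, and neighbours were not tested against each other.

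Gzma and Gzmd were at 0 in many tumors of some strains. Depth differed, at 46533 to 291443 cluster 3 UMIs per tumor in CC036 and 99916 to 415272 in CC080 hosts of the fit. In CC001 hosts it was 111006 to 431871 and in CC075 hosts 194522 to 877404. A 0 at low depth does not show that a gene was absent. Gzma was at 0 in 4 of 6 CC036 and 3 of 4 CC080 tumors, yet 1 tumor of each reached 215 and 388 CPM, and in CC075 tumors it ran from 54.7 to 483 CPM (edgeR adjusted p = 0.0114; 0.0927 with pool as a term). Gzmd was at 0 in 5 of 8 CC001 and 5 of 6 CC036 tumors and reached 947 CPM in 1 of 3 CC007 tumors (edgeR adjusted p = 1.29e-05). CC alleles of these genes were also read against the B6 reference, and the part of this was not tested.

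**Figure D4:**
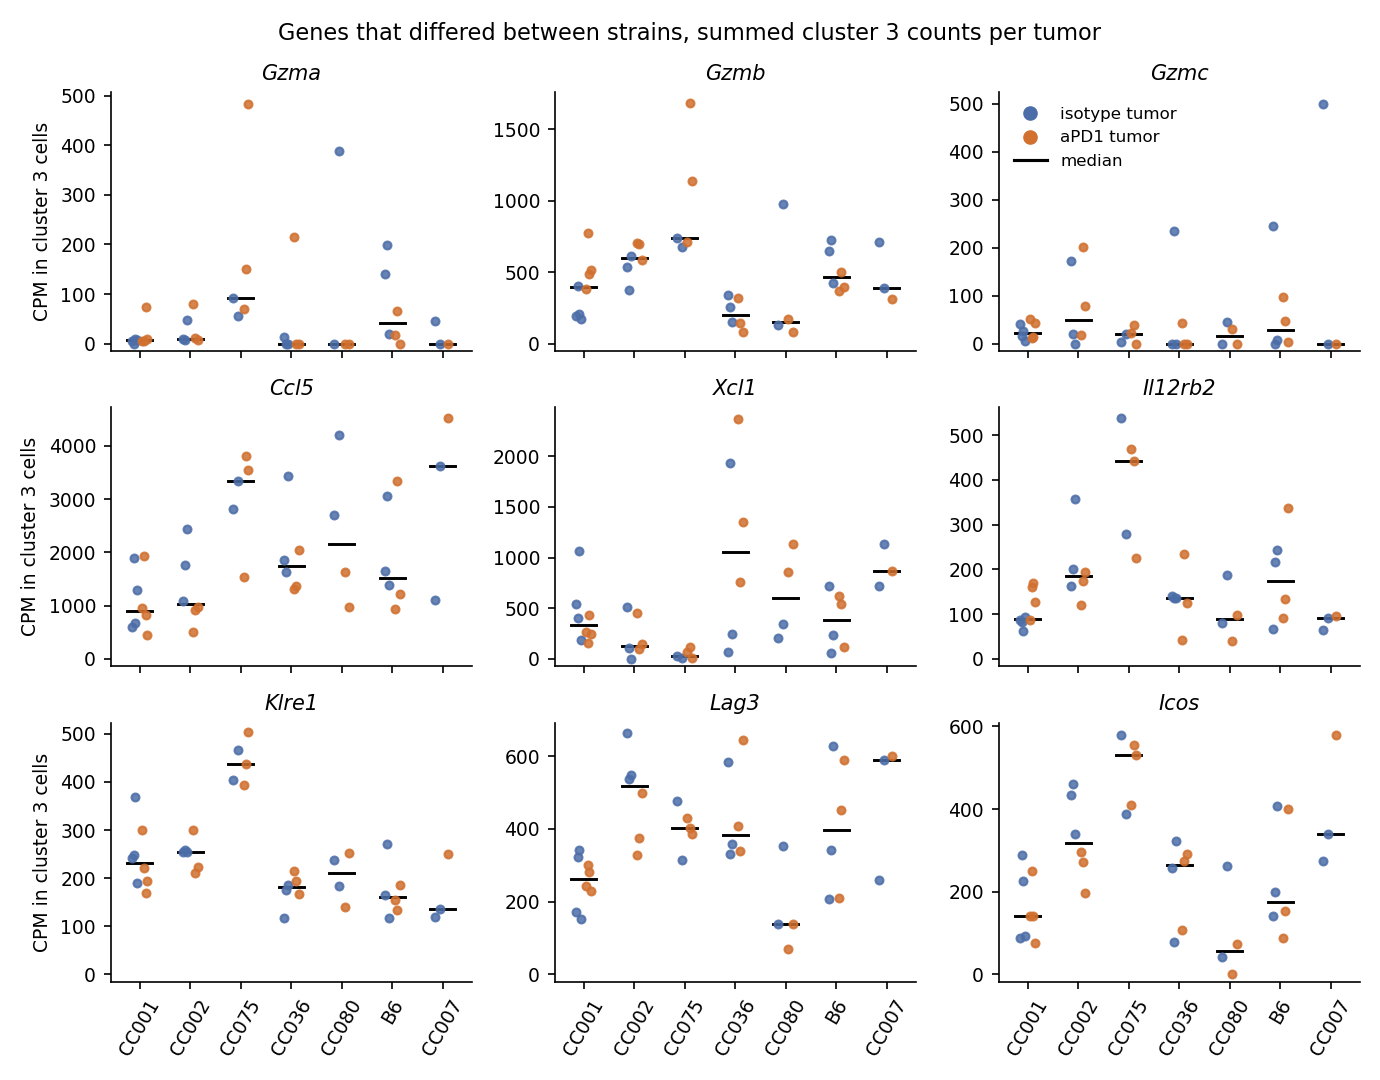
CPM of 9 genes that differed between strains in the fit without pool, in the summed cluster 3 counts of the 38 tumors of 7 strains, with bars at the strain medians. CC075 tumors were high in Klre1, Il12rb2, Gzmb and Icos and low in Xcl1; for Gzma and Gzmc single tumors of a strain lay far above its median.

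The inhibitory receptors varied too. Lag3 had medians of 590 CPM in CC007, 518 CPM in CC002, 402 CPM in CC075, 397 CPM in B6, 383 CPM in CC036, 262 CPM in CC001 and 138 CPM in CC080 tumors (edgeR adjusted p = 0.0135). Pdcd1 had its lowest median in CC007 tumors, at 38.7, 158 and 250 CPM, and had medians between 272 and 335 CPM in the 6 other strains (edgeR adjusted p = 0.0150). Entpd1 stood at 22.7, 38.7 and 62.7 CPM in CC007 tumors, with a median of 170 CPM in CC080 tumors (edgeR adjusted p = 8.92e-04; 0.260 with pool as a term). The 3 CC007 tumors of the fit thus had the highest Lag3 median and the lowest Pdcd1 median, and a relation of these genes over tumors was not tested. Transcription factors of the resting state also differed. Bach2 had medians of 67.2 CPM in CC080 and 95.2 CPM in CC001 tumors and 232 to 318 CPM in the other strains (edgeR adjusted p = 0.00369), and Satb1, a chromatin organizer, 31.3 CPM in CC080 and 309 CPM in CC007 tumors (edgeR adjusted p = 0.00913).

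The 5′ chemistry of the libraries also read variable genes of the T cell receptor. Each clone of T cells keeps 1 rearranged beta chain, so the Trbv gene of a cell is shared by its clone, although cells of different clones may use the same gene. A Trbv UMI was found in 1517 cluster 3 cells (54.0%), against 0.190% of cluster 2 cells, and a Trav UMI in 32.4%. UMIs of 2 or more Trbv genes were held by 228 of these cells, and 66 cells had a tie for the top gene. Ties were settled by the order of the genes. Trbv alleles of the CC strains were read against the B6 reference. The most used genes were Trbv16 (13.4%), Trbv13-1 (11.3%), Trbv13-2 (10.3%), Trbv3 (7.45%) and Trbv5 (6.66%) over all cells. Of the 203 Trbv16 cells 104 came from pool 5, without which the shares were 8.22% for Trbv16, 12.0% for Trbv13-1, 10.9% for Trbv13-2, 8.72% for Trbv3 and 6.98% for Trbv5. By the median over tumors with at least 20 such cells, Trbv13-1 led with 10.1%, before Trbv13-2 (7.45%), Trbv19 (5.99%), Trbv5 (4.20%) and Trbv16 (4.04%). Counts of similar genes can be split, so the end of the coding part is given for the 2 genes that differed between the classes (Trbv13-1 and Trbv19) and for those that led the tumors of highest concentration (60 bases of GRCm38 chromosome 6, plus strand, GENCODE transcripts), with the codon of the conserved cysteine that opens the CDR3, and the 3 bases after it, in capitals.
Trbv13-1 (chr6:41116409-41116468): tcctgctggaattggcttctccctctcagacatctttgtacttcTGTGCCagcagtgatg
Trbv13-2 (chr6:41121773-41121832): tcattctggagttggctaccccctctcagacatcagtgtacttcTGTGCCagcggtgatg
Trbv16 (chr6:41152171-41152230): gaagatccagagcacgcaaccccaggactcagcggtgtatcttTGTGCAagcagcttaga
Trbv19 (chr6:41178989-41179048): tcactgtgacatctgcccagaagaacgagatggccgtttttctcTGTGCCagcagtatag
Trbv2 (chr6:41047936-41047995): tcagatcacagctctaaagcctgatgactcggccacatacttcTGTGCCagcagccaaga
Trbv26 (chr6:41227934-41227993): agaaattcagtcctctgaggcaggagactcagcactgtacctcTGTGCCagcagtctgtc
Trbv13-1 and Trbv13-2 were identical at 52 of 60 bases when lined up at the cysteine codon, whereas Trbv16 matched the other genes shown at 27 (Trbv13-1, of 59) to 35 bases (Trbv26, of 60), and of the other much used genes Trbv5 at 38 of 60 and Trbv3 at 41 of 56.

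In 24 tumors with at least 20 cells that had a Trbv UMI, the leading Trbv gene took from 14.8% to 90.0% of them (median 30.6%). In 4 tumors the lead was tied, and 11 different genes led in the other 20. The chance that a pair of cells drawn from 1 tumor shares its Trbv gene (the Simpson index) was 7.40% over all cells of these tumors pooled. Within tumors it ran from 7.12% to 17.9% in the 15 responder tumors, with a median of 14%, and from 28.5% to 81.1% in the 4 non-responder tumors, with a median of 46.4%. The groups did not overlap (permutation test of the rank sum over tumors, n = 15 and 4, exact p = 5.16e-04; 0.0464 with tumors of at least 10 cells, where the difference was -19.5 points). The 5 tumors of B6 and CC007 hosts ran from 8.97% to 29.5%. Of the 4 non-responder tumors 3 came from CC080 hosts. Without them 1 tumor was left and the test could not pass (difference -14.5 points). Over cells whose top Trbv gene had at least 2 UMIs, a rule that can leave out tumors, the difference was -25.4 points (exact permutation p = 0.167). Before that rule the non-responder tumors had 20, 27, 31 and 77 cells with a Trbv UMI, against the minimum of 20. Few may be left, so the test may not have been able to pass.

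The 5 tumors of highest index were led by 4 genes. In the CC080 aPD1 tumor of pool 3, Trbv16 was the top gene of 18 of 20 cells (90.0%, exact 95% interval 68.3% to 98.8%), and 9 of 12 of these cells with a Trav UMI had Trav13n-4. In the CC080 isotype tumor of the same pool it was Trbv2 with 23 of 31 cells (74.2%), 6 of 7 with Trav7d-3. In the CC080 isotype tumor of pool 4 Trbv13-2 led with 44 of 77 cells (57.1%). Of its leading cells with a Trav UMI 6 of 16 had Trav12-2, as had 3 of 15 of its other cells. In the CC036 isotype tumor of pool 10 it was Trbv16 with 14 of 27 (51.9%), 6 of 12 with Trav9-1. A B6 isotype tumor of pool 6, of a host without a class, was led by Trbv26 with 14 of 26 cells (53.8%), and all 9 of these with a Trav UMI had Trav16n. The junction sequences, which would tell clones apart, were not analysed here. The isotype and aPD1 tumor of 1 strain and pool shared the leading gene in 1 of 7 pairs, the CC002 tumors of pool 5 with Trbv16 in 36 of 109 and 68 of 194 cells.

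Of 19 Trbv genes tested between the classes 2 passed (10.5%). Trbv13-1 had medians of 11.9% of Trbv cells in responder and 1.30% in non-responder tumors (permutation test over 15 and 4 tumors, exact, adjusted p = 0.0221), and Trbv19 of 6.42% and 0% (adjusted p = 0.0221, the same exact test). Where a single gene takes most cells of a tumor the shares of all others are small, so these differences are not independent of the high index of the non-responder tumors. Neither gene passed without CC001 (lowest adjusted p = 0.0503) or CC002 hosts (0.0569; exact permutation tests). Nor did either pass in tumors of at least 30 cells (0.288, exact permutation test). The non-responder tumors there were the CC080 isotype tumors of pools 3 and 4 alone, so that setting could hardly pass. Over cells whose top gene had at least 2 UMIs neither passed (0.750, exact permutation test), a rule that can leave out tumors. Few non-responder tumors may be left by it, so that setting may not have been able to pass. Without CC080 hosts the 1 tumor left could not pass. The index was also set beside that of cluster 7 of the same tumors, a T/NK cluster of fewer Cd8a cells. In 14 tumors with enough cells in both, it was higher in cluster 3 in 12, with medians of 14.9% and 7.01%. Over its 24 tumors the median of cluster 3 was 16.1% (7.12% to 81.1%). Clusters 1 and 10 stood near that median, at 16.3% in 1 tumor and at a median of 16.3% in 4 tumors (11.6% to 25.1%). Clusters 13 and 8 stood lower, at 10.0% in 1 tumor and at a median of 10.1% in 17 tumors. The highest index in clusters 1, 7, 8, 10 and 13 was 25.1%, below the range of the non-responder tumors in cluster 3. These medians are over different sets of tumors, and the difference between clusters was not tested.

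**Figure D5:**
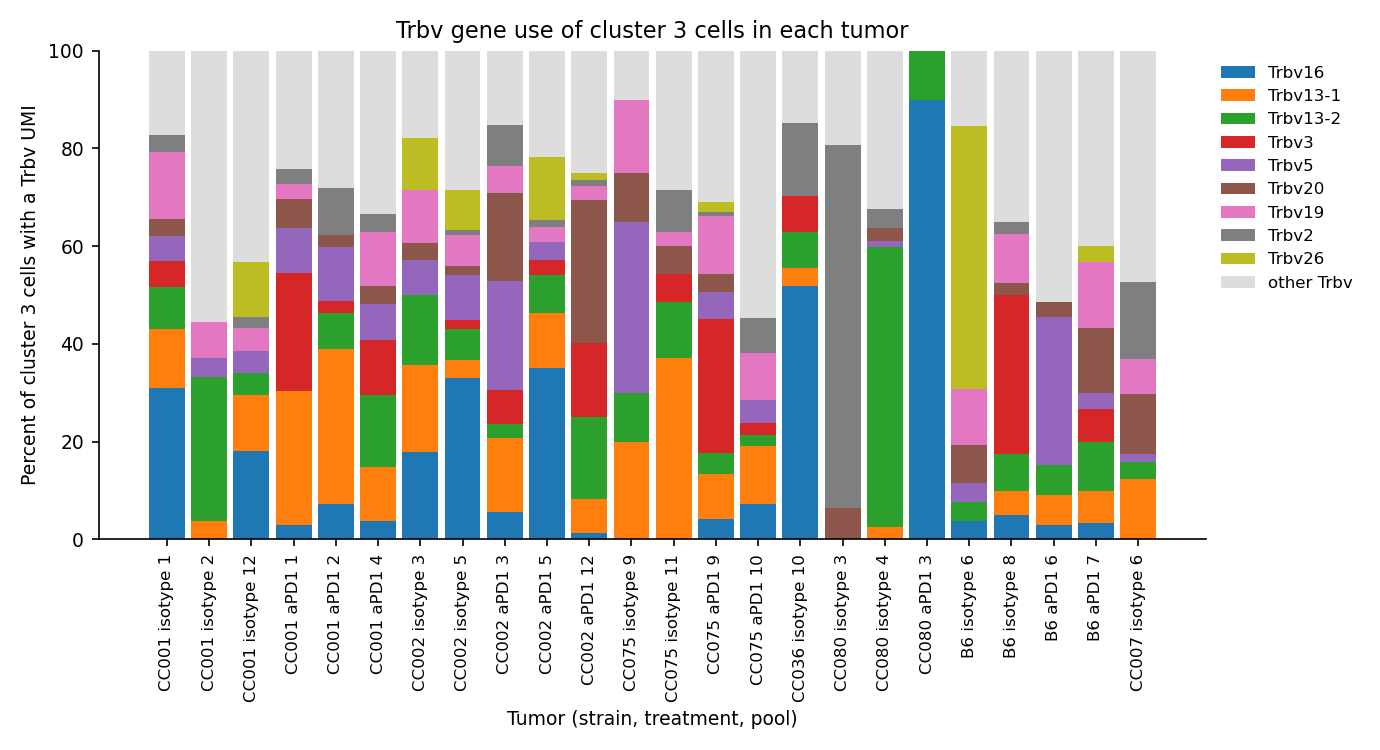
Percent of cluster 3 cells by their top Trbv gene in each of the 24 tumors with at least 20 such cells (stacked bars, 1 per tumor, named by strain, treatment and pool). Single genes take from 51.9% to 90.0% in the 4 non-responder tumors and 53.8% in 1 B6 tumor, and 11 genes lead in the 20 tumors with no tie.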

How the data were processed

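The data were 10x Genomics 5′ single-cell libraries of 12 pools of 4 hashtagged MC38 tumors each, 48 tumors in all. The authors aligned reads to GRCm38 with GENCODE annotation in Cell Ranger, removed cells of high mitochondrial or ribosomal share, clustered with Seurat 5.0.1 after harmony correction for processing date, and deposited raw UMI counts per gene and cell with the strain, treatment, hashtag and cluster of each cell. Cluster 3 was used as deposited. The labels name TotalSeq-A hashtags and the study's methods TotalSeq-C.

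The replicate was the tumor. Nothing states more than 1 tumor per animal, but 2 CC080 tumors carry the same animal identifier (isotype in pool 3, aPD1 in pool 4). Cells per tumor ranged from 53 to 3082. Shares were compared with two-sided exact permutation tests of the rank sum (permutation with 100000 resamples for 10 against 10). The size given was the difference of medians, and p-values were adjusted by Benjamini-Hochberg over the 10 share tests. Within pools the size was the median of the differences, and sign flips tested their mean. Counts were summed over cluster 3 cells of tumors with at least 10 and tested with edgeR 4.0.16 (R 4.3.3; TMM scaling, filterByExpr, quasi-likelihood test) in a fit of class and treatment, a fit of strain and treatment, and a fit of treatment over all strains; DESeq2 1.42.0 was an alternative, and the scripts were tested on simulated data. CPM values are scaled raw counts per tumor. T cell receptor use was the Trbv gene of most UMIs in a cell, and its Simpson index the unbiased chance that cells share it, tested over tumors by exact permutation of the rank sum. Genes were named by a rule: up to 10 per direction and comparison of lowest p past the threshold, the 5 markers, list members past the threshold, the 4 highest list members, and for the description the 10 largest folds over other T/NK cells of at least 50 CPM, and the 5 most used Trbv genes; leading Trbv genes of single tumors, Cmtm7, Trdc and Trgv2 were named after their values were seen. The description of the cluster also names list members outside this rule, among them Tigit, Tcf7, Klf2, Batf, Nr4a1 and Prf1. It leaves out some that the rule selects, such as Srgn and Stat3. The members and lists were chosen with earlier results of these data known.

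Tumors of a pool share a library, so pool pairs them. Deviations from strain and treatment means correlated with a median of 0.136 in 17 pairs of 1 pool and strain (-0.05 to 0.539) and of -0.0366 in 36 pairs of different pools. Alternatives were scaling, low-count filter, cell minimum, macrophage UMIs, the shared identifier, pool as a block, early (1 to 6) and late (7 to 12) pools, sums per strain, and leaving out each strain or pool; strain means for shares, pool as a term in the strain fit and Trbv use without pool 5 were added after seeing the data. Where nothing says that tumors came from separate cohorts, p-values measure the spread between these tumors.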

Additional observations from a re-analysis of the deposited data

Results flagged for a closer look

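Samples of a group that lay far from the others were looked for in 118 groups of 4 to 10 tumors (shares, Simpson index and CPM of called genes), where chance gives about 1 flag in 20 groups by the 95% limit of Dixon's test. There were 8. In responder isotype tumors, the CC001 tumor of pool 4 had 126 CPM of Gm10260, and the CC002 tumor of pool 3 had 99.7 CPM of Penk and, at the low end, 45.3 CPM of Sh3bgrl. In responder aPD1 tumors, the CC075 tumor of pool 10 had 30.3 CPM of Cd4 and the CC002 tumor of pool 12 had 106 CPM of Penk. In non-responder aPD1 tumors, the CC036 tumor of pool 10 had 1368 CPM of Klrd1 and 311 CPM of Maf, and the CC036 tumor of pool 9 had 586 CPM of Odc1.

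The change with aPD1 differed between the classes by the interaction test for Id2, at 1.33 (responder minus non-responder, log2), and for Sh3bgrl, at -1.55.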

How the results depend on the processing

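Calls depended on the unit of replication and on single strains. Shares are given as responder minus non-responder strains, in points. For aPD1 tumors as a percent of all cells, the difference was 2.99 with pools as blocks (pairing tumors of a library), 4.37 in early and 2.76 in late pools, and 5.37 over strain means. For T/NK cells of isotype tumors the same settings gave 25.1, 29.1, 17.9 and 17.2, and for T/NK cells of aPD1 tumors 23.4, 23.7, 20.7 and 23.9. None of these 12 passed after adjustment, and the late and early pools and the strain means hold fewer tumors or values by construction. The treatment difference in responder strains turned to 0.0796 without tumors of under 500 cells and 2.03 in early pools for all cells. With pools as blocks the median of its pair differences was 0.620 for all cells and 0.0726 for T/NK cells, while the permutation tested their mean. The difference between classes turned to -0.406 in late pools. Leaving out each strain or pool gave 2.22 to 3.57 (aPD1, all cells), 18.2 to 23.6 (aPD1, T/NK), 16.6 to 27.8 (isotype, T/NK; 20.2 without CC001, adjusted p = 0.120), 2.19 to 5.19 (isotype, all cells; passing at 5.19 without CC075 and 3.65 without pool 8), and for treatment -2.28 to 1.00 and -9.98 to 1.45 in responder strains, -0.763 to -0.00938 and -8.81 to -0.999 in non-responder strains, and 0.47 to 2.01 and -6.05 to 8.48 for the difference between classes, in all cells and T/NK cells.

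Counts of genes past the threshold were, by class over both treatments, 20 by library size alone, 111 with no filter, 20 without the 2 tumors of 1 identifier, 17 with pool as a term (replicate block), 19 in late pools and 3 per strain. In isotype tumors they were 7 in DESeq2, 80 with no filter, 1 without cells holding macrophage UMIs, 6 without the shared identifier, 8 with pool as a term, 16 in early pools and 1 per strain. In aPD1 tumors they were 17 in DESeq2, 57 with no filter, 1 without the shared identifier, 4 in early and 2 in late pools, and 1 per strain. For aPD1 against isotype in responder strains they were 17 with no filter and 1 with pool as a term. In non-responder strains they were 2 in DESeq2, 8 with no filter, and 0 by library size alone, with at least 20 cells, without macrophage UMIs or without the shared identifier. For the interaction they were 4 in DESeq2, 15 with no filter, 1 by library size alone or without macrophage UMIs, and 0 with at least 20 cells or without the shared identifier. Over all strains 24 genes passed by treatment and 1084 by strain with no filter, and 210 by strain with pool as a term (replicate block). Leaving out each strain or pool gave 5 (without CC002) to 111 (without CC080) genes by class, 1 to 13 in isotype and 3 to 36 in aPD1 tumors, 280 (without pool 9) to 1038 (without pool 6) by strain, 0 to 2 for the interaction and in non-responder strains, and 0 for treatment in responder and in all strains. Pdcd1 with aPD1 in non-responder strains turned to 0.00541 with at least 5 cells, 0.22 with at least 20 and 0.00192 without macrophage UMIs, and ran from -0.41 to 0.45 with a strain or pool left out. Lag3 by class turned to -0.16 in late pools and ran from -0.00105 to 1.24. Early and late pools hold different non-responder strains in the gene fit, so pools and strains cannot be told apart there. Trbv genes past the threshold were 3 with at least 10 cells, 0 with at least 30, 0 with at least 2 UMIs and 0 to 3 without a strain, and the Simpson difference was -32.4 in the report's setting, -19.5 with at least 10 cells, -25.4 with at least 2 UMIs and -42.1 to -14.5 without a strain. With at least 30 cells few non-responder tumors are left by construction, and with at least 2 UMIs few may be left. Where no construction is named, the cause was not tested. The non-responder aPD1 group held the fewest cells, 104 in 5 tumors.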
